A study of Mus musculus with 7 samples.

Results

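F-box genes were examined in mouse oocytes with and without a mitofusin deletion: every protein-coding row named Fbxw, Fbxl or Fbxo plus a number, 76 of the 26019 rows of the deposited table. Of these, 14 are Fbxw genes that lie side by side on chromosome 9, and 62 lie elsewhere (9 Fbxw, 18 Fbxl and 35 Fbxo). Each library was made from 5 pooled oocytes taken from secondary follicles of C57BL/6J mice by collagenase and then Accutase, with full-length cDNA by Smart-Seq2. By their titles, 4 libraries were wild type (WT 1 to 4) and 3 were knockout (KO 1 to 3); no treatment is named. The sources disagree on the model: the series text names Mfn2-/- and the genotype label and protocol name Mfn1-/-, and one age label reads P1 where the protocol gives 8 weeks. The design text gives 3 mice per group, although there are 4 WT libraries. No promoter or Cre is named, and nothing says that each library came from a different mouse, so the p-values here describe spread among these 7 libraries, which may be technical.

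F-box proteins are the exchangeable substrate receptors of SCF ubiquitin ligases: the F-box binds Skp1, Skp1 binds the cullin Cul1, and a second domain picks the protein to be ubiquitinated. Fbxw members carry WD40 repeats, Fbxl members leucine-rich repeats, and Fbxo members other domains or none recognised. In oocytes the class is known for Fbxo5 (Emi1) and Fbxo43 (Emi2), inhibitors of the anaphase-promoting complex (APC/C), of which Emi2 holds meiotic arrest. It is also known for a rodent array of oocyte Fbxw genes whose substrates are largely undescribed. Mitofusins fuse the outer mitochondrial membrane.

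Reads assigned to genes numbered between 6676076 and 8343915 per library. Mfn2, one of the genes named as deleted, was at 35.3, 35.1, 15.0 and 29.2 in WT 1 to 4, and 7.27, 4.55 and 7.66 in KO 1 to 3 (limma log2 fold change -1.94 with SE 0.40, adjusted p = 0.00571), and Mfn1 was at 289 ± 36.3 in WT against 330.3 ± 19.9 in KO (SD, n = 4 and 3) (limma adjusted p = 0.499). Normalised counts, the reads of a gene divided by 1 size factor per library, are the unit throughout. Oocyte markers were abundant, their sum spanning 258290 to 321340 in WT and 288368 to 445453 in KO. By the test used below, 2 of 19 were higher in KO (Ddx4 and Dazl) and 0 lower, 10.5% against 6.71% of all genes. Granulosa cell markers, from the cells that surround the oocyte, summed to 3097 to 4204 in WT and 3785 to 5236 in KO. Most of that sum was 1 gene, Serpine2, with means of 3088 in WT and 3741 in KO. Foxl2 and Amh had means of 0.27 and 0.24 in WT, and 2.61 and 5.58 in KO. Larger differences were seen in Inha, with means of 30.03 in WT and 262 in KO, and in Gatm, with 7.22 and 73.03. In KO 1 to 3, Inha was at 54.5, 395 and 338, and Gatm at 14.5, 140 and 64.5. For both, KO 1 lay inside the WT range and KO 2 and KO 3 above it (limma log2 fold change 2.95 and 3.45, adjusted p = 0.146 and 0.168). The mean log2 of 18 of the markers was 2.51 to 3.67 in WT, 3.68 in KO 1, 4.74 in KO 2 and 4.69 in KO 3. By mean, 18 of the 20 were above WT in KO. Of 18 tested, 1 was called (5.56% against 6.71% of all genes), Cyp19a1, which was lower. Inhbb was at 0 in every WT library. The 4 theca and stroma markers summed to 9.35 to 20.2 in WT and 9.09 to 21.8 in KO, with 0 called. The 6 blood and immune markers summed to 700.1 to 739 in WT and 311 to 459 in KO. Most of that sum was C1qb, with means of 533 in WT and 217 in KO, the 1 called of 3 tested. C1qa, Adgre1 and Lyz2 had means of 0.93, 0.24 and 0.47 in WT and 0 in KO. Cd68 went from 12.4 to 18.4 and Pecam1 from 164 to 154, and neither was called.

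The 14 chromosome 9 genes all lie on the minus strand within 651.2 kb, in the order Fbxw21, Fbxw13, Fbxw20, Fbxw14, Fbxw28, Fbxw22, Fbxw16, Fbxw19, Fbxw15, Fbxw24, Fbxw25, Fbxw18, Fbxw26 and Fbxw27 (GRCm38, GENCODE M21). Fbxw21 starts at 109139447 and Fbxw27 ends at 109790670. Fbxw23, annotated as a transcribed pseudogene inside the array and therefore no member, was at 1823 ± 123 in WT against 1526 ± 197 in KO (SD, n = 4 and 3) (limma adjusted p = 0.234). The genes are near copies of each other: over the 91 pairs, transcripts matched at 81.0% to 92.2% of aligned bases, with a median of 84.5%. Fbxw17 on chromosome 13, an Fbxw gene outside the array, aligned to them over only 94 to 186 bases. Because the reads were 75 bases long, the share of each transcript's 75-base stretches found in another gene bears on how reads could be split. It was 47.0% for Fbxw14 and 50.3% for Fbxw28, each mostly matching the other, and 0.0706% to 9.78% for the other 12. Counts of that pair are therefore uncertain one by one. Summed, the pair was at 43871 ± 3312 normalised counts in the 4 WT libraries (SD) and at 49201 ± 9015 in the 3 KO libraries (SD). If shared reads were left out of the counts, the sum misses them too.

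The similarity extended upstream. RefSeq windows of 250 bases before the annotated start (GRCm38.p6) were matched to 11 of the 14 genes (all but Fbxw13, Fbxw22 and Fbxw27), and over their 55 pairs were identical at 82.9% to 96.8% of aligned bases, with a median of 90.7%. The windows below are those of the most abundant gene (Fbxw24), the least abundant (Fbxw25), the pair with the closest windows (Fbxw14 and Fbxw28) and, for contrast, Fbxw17. They are written 5′ to 3′ on the gene's strand, with every CANNTG (the E-box, bound by basic helix-loop-helix factors, the same on both strands) in capitals.
Fbxw24, chr9:109626060-109626309, minus strand: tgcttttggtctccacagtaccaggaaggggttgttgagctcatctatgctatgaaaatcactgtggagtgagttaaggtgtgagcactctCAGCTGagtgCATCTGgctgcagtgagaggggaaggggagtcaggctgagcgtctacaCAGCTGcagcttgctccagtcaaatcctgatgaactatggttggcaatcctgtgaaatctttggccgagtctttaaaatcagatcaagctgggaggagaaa
Fbxw25, chr9:109664653-109664902, minus strand: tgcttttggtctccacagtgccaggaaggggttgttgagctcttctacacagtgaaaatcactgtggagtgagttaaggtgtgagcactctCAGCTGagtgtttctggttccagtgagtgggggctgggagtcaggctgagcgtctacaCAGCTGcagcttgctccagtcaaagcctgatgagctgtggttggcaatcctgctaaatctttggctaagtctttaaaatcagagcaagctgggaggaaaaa
Fbxw14, chr9:109287677-109287926, minus strand: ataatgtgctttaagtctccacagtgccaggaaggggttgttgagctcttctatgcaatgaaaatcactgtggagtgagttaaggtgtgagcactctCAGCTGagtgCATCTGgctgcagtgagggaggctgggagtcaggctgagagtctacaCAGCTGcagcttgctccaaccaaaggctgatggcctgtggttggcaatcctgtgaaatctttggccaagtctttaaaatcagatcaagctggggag
Fbxw28, chr9:109339660-109339909, minus strand: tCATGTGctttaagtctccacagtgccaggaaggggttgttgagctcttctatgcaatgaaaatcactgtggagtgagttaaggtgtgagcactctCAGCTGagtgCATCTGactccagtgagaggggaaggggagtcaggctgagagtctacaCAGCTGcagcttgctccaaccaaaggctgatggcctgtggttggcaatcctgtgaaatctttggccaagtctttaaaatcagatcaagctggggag
Fbxw17, chr13:50417614-50417863, plus strand: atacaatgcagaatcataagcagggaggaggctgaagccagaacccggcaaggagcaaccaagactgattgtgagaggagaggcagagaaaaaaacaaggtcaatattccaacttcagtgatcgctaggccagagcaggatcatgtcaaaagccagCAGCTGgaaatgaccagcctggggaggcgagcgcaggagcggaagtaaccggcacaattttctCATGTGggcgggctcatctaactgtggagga
One form of the motif, CAGCTG, its own reverse complement, was present in 11 of 11 array windows. It was present in 13% of all 32851 RefSeq windows and in 9 of 46 windows of other F-box genes (19.6%). In 10 of the array windows there were 2 copies, spaced 56 to 58 bases apart, and Fbxw20 held 1; in Fbxw24, Fbxw25 and Fbxw15 they began 159 and 101 bases before the start. The looser CANNTG, which includes CAGCTG and CATCTG, was in 11 of 11 array windows and in 66.2% of all windows. CATCTG (or CAGATG, its reverse complement) was in 7 of 11 against 14.4% of all. On either strand, TAATTG and TAATTA, the letters bound by the oocyte factor NOBOX, and TATAAA were in 0 of 11, against 7.17%, 4.84% and 12.4% of all windows. These are matches of letters, and since the windows are copies of each other they are not separate observations.

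The 14 genes of the array were abundant. They summed to 214690.0, 198250.0, 177360.0 and 208050.0 in WT 1 to 4, 11 times the sum of the 62 other F-box genes (18154), and made up 2.78% ± 0.117 (SD, n = 4) of all reads in WT. By mean count over the 7 libraries, 9 of the 14 were among the first 100 of the 26019 rows, and their ranks ran from 7 for Fbxw24 to 1448 for Fbxw25. To compare genes, levels were divided by the kilobases of annotated exon, with all isoforms of a gene merged. On this scale the WT level spanned from 28823 for Fbxw24 to 723 for Fbxw25, a ratio of 39.9. Yet their transcripts were 89.1% identical over 1489 aligned bases and their windows 90.8%. Merged exons can exceed the longest coding transcript, as in Fbxw19 (3487 against 1483 bases) and Fbxw20 (2429 against 1511). The places of such genes in the order therefore depend on the annotation. Those of Fbxw14 and Fbxw28 also depend on how their shared reads were counted, which no source used here states. The order per kilobase was Fbxw24 (28823 ± 3516), Fbxw15 (16646 ± 1176), Fbxw28 (12005 ± 792), Fbxw14, Fbxw18, Fbxw16, Fbxw21, Fbxw19, Fbxw26, Fbxw20, Fbxw22, Fbxw27, Fbxw13 (2266 ± 243) and Fbxw25 (723 ± 57.7; SD, n = 4 for each). Neighbours in this order whose WT ranges overlapped were Fbxw14 with Fbxw18, Fbxw18 with Fbxw16, and each step from Fbxw21 down to Fbxw27. The other F-box gene with the highest level per kilobase, Fbxo5 at 897, was the only one above Fbxw25.

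Flanking genes were at lower levels per kilobase. Plxnb1 on one side was at 4.30 normalised counts per kilobase in WT, and Spink8 and Nme6 on the other were at 4.42 and 185, against 723 for Fbxw25, the lowest of the array.

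**Figure D1:**
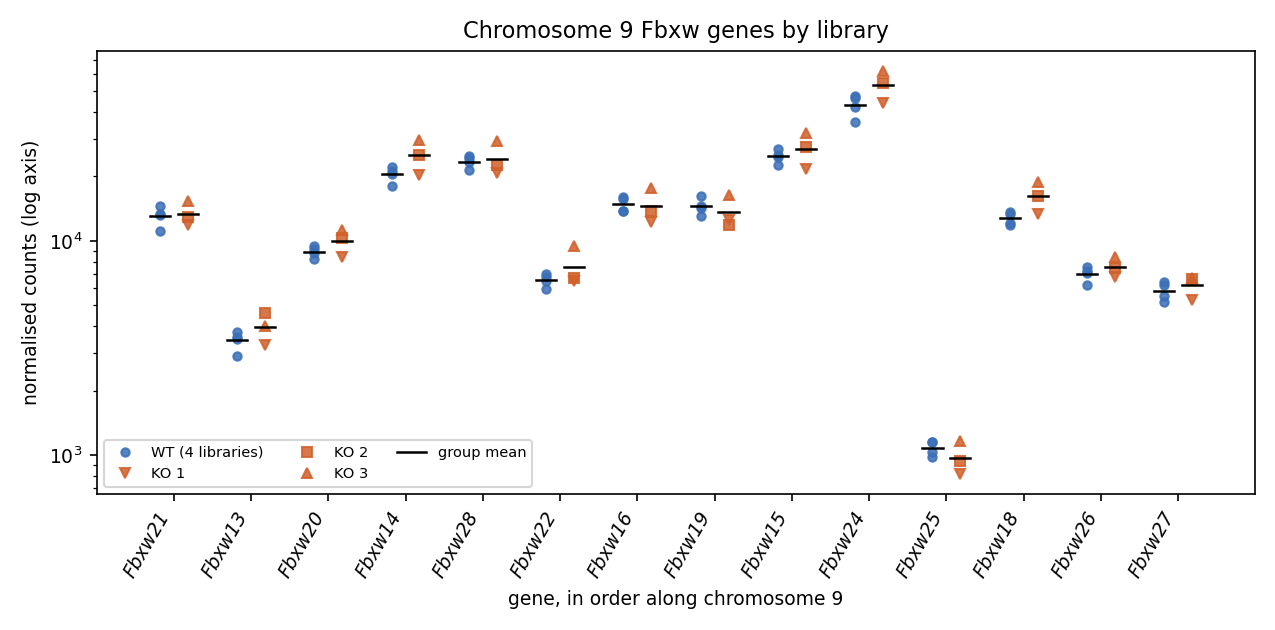
Normalised counts (log axis) of the 14 chromosome 9 Fbxw genes in chromosomal order, 1 point per library, with a bar at each group's mean. KO 3 has the highest point in 13 of the 14 genes, and the WT and KO points overlap in all 14.

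Between WT and KO, no array gene passed the test. The test was limma on log2(normalised count + 1) over the 19227 genes at 1 or more in at least 3 libraries, called at an adjusted p under 0.05, and it called 6.71% of all genes (3.09% higher and 3.63% lower in KO). All 14 array genes were tested and limma called 0; 3 had an unadjusted p under 0.05, against 21.8% of all genes. On the recovered reads edgeR and DESeq2 also called 0, where they called 9.27% and 9.35% of all genes. The log2 fold changes ran from -0.16 (Fbxw25) to 0.33 (Fbxw18), 11 above 0 and 3 below, with a median of 0.10 beside -0.01 over all genes tested, of which 49.2% were above 0. For none of the 14 did the groups separate, against 19.2% of all genes whose groups did not overlap. The 95% limma intervals together span KO over WT ratios of 0.730 to 1.49, which leaves changes of that size undecided. In pooled oocytes, fewer cells of a type and less RNA per cell cannot be told apart.

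Fbxw24, the most abundant, was at 46230.3, 42295, 35734 and 47294 in WT 1 to 4, and 43742, 54263 and 62058 in KO 1 to 3. KO 2 and KO 3 stood above every WT library and KO 1 lay inside the WT range (limma log2 fold change 0.31 with SE 0.13, adjusted p = 0.149). Fbxw18 was at 13363, 13621, 12086 and 11912 in WT 1 to 4, and 13399.8, 16265 and 18756 in KO 1 to 3, with the same split among the KO libraries (limma log2 fold change 0.33 with SE 0.12, adjusted p = 0.103). Fbxw14 was at 22093, 20606, 17951 and 21146 in WT 1 to 4, and 20333, 25202 and 29626 in KO 1 to 3; again KO 2 and KO 3 were above WT and KO 1 was not (limma log2 fold change 0.28 with SE 0.12, adjusted p = 0.186). These 3 passed the limma test once KO 1 was left out, with adjusted p of 0.0279 for Fbxw24, 0.0204 for Fbxw18 and 0.0331 for Fbxw14, when 9.36% of all genes passed. Without the filter on low values, Fbxw24 (limma adjusted p = 0.0378) and Fbxw18 (limma adjusted p = 0.0434) passed, when 6.23% of all genes did.

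At the other end, Fbxw19 was at 16176, 14239, 13021 and 14493 in WT 1 to 4, and 12541, 11894 and 16404 in KO 1 to 3. Its KO 1 and KO 2 values were under every WT value while KO 3 was above them all (limma log2 fold change -0.10 with SE 0.12, adjusted p = 0.694). Fbxw25 was at 1149, 1029, 1152 and 981 in WT 1 to 4, and 816, 935 and 1164 in KO 1 to 3, with the same arrangement (limma log2 fold change -0.16 with SE 0.14, adjusted p = 0.551). Fbxw16 was at 15659.5, 13844, 13775 and 16044 in WT 1 to 4, and 12203, 13839 and 17629 in KO 1 to 3; KO 1 alone was under every WT value (limma log2 fold change -0.04 with SE 0.12, adjusted p = 0.891).

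The other 8 were not called either. Fbxw15, second in abundance, had a mean of 24886 ± 1757 in WT against 26886 ± 5042 in KO (SD, n = 4 and 3), and Fbxw28 one of 23422 ± 1545 in WT against 24147 ± 4499 in KO (SD, n = 4 and 3). Fbxw21 had 13030.0 ± 1411 in WT and 13387 ± 1844 in KO, and Fbxw20 had 8904 ± 514 and 10017 ± 1460.0. Fbxw26 and Fbxw27 were at 7029.7 ± 568 and 5843 ± 589 in WT, and at 7532 ± 800.3 and 6213 ± 789 in KO. Fbxw22 had 6569 ± 448 in WT and 7575 ± 1653 in KO, and Fbxw13 had 3429 ± 367 and 3967 ± 672. Fbxw13 was the single array gene in which KO 2, not KO 3, was highest (4616 against 4010.4). Limma adjusted p for these 8 lay between 0.404 and 0.917.

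The KO libraries differed from each other more than the groups did. The array sum was 187410.0, 221040.0 and 261800.0 in KO 1 to 3, which is 0.939, 1.11 and 1.31 times the WT mean. As a share of all reads this was 2.74%, 2.91% and 3.49%, a mean of 3.05% ± 0.393 (SD, n = 3), against 2.91%, 2.79%, 2.62% and 2.79% in WT 1 to 4. KO 3 was above every WT library in 14 of 14 genes, KO 2 in 7, and KO 1 was under the WT mean in 12. KO 3 had the highest of the 7 values in 13 of the 14, as it did in 20.1% of all genes. WT 3 was the lowest WT library in 12 of 14. The direction of the array's differences rested on KO 2 and KO 3: the median log2 fold change was 0.02 without KO 3 (8 above 0, 6 below), 0.22 without KO 1, and -0.11 without KO 2 and KO 3 together (2 above 0, 12 below). The granulosa marker mean was only just above the highest WT library in KO 1 (3.68 against 3.67) and further above it in KO 2 and KO 3. It therefore followed the group, and a fit that holds both cannot tell the marker level and genotype apart. With that mean in the fit the array median was -0.10 (4 above 0, 10 below), 7 of the 14 genes turned from above to below 0, Fbxw14 moved from 0.28 to 0.01, and limma called 0 of 14.

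**Figure D2:**
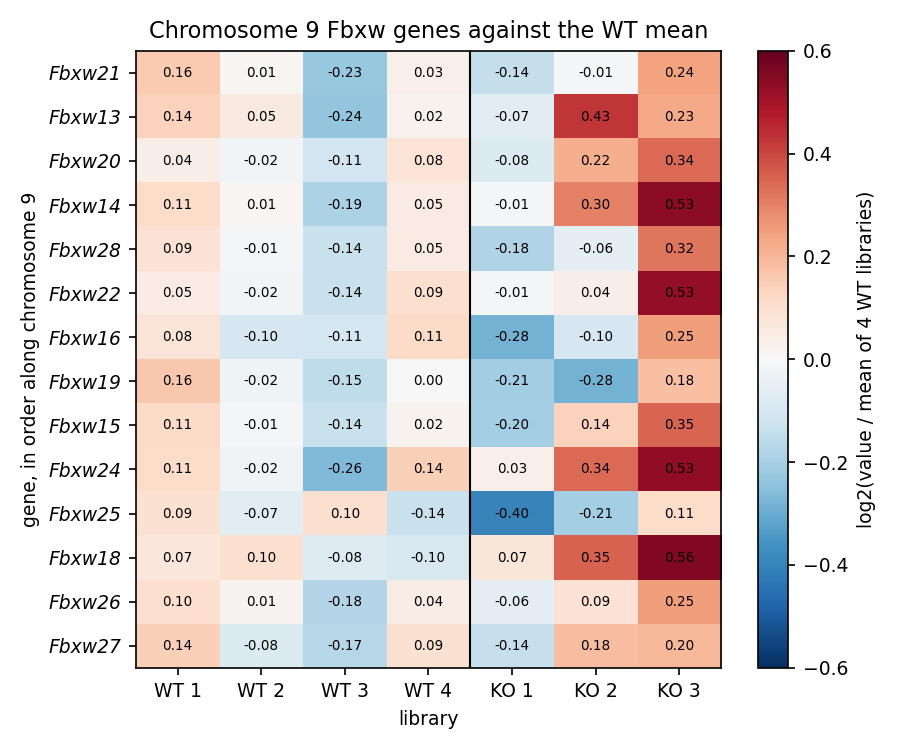
Log2 ratio of each library's normalised count to the WT mean for the 14 chromosome 9 Fbxw genes (rows, chromosomal order; columns, libraries; colour, log2 ratio). The KO 3 column is above the WT mean in 14 of 14 genes and the KO 1 column is below it in 12.

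The make-up of the array's transcripts was compared next, after its values had been seen, by dividing each gene by the array sum of its library. This sets aside any level common to all 14 genes. Fbxw24 took 21.4% ± 1.06 of the sum in WT and 23.9% ± 0.620 in KO (exact permutation p = 0.0571, two-sided). Fbxw14 went from 10.2% ± 0.124 to 11.2% ± 0.297 (exact permutation p = 0.0286), and Fbxw18 from 6.41% ± 0.541 to 7.22% ± 0.116 (exact permutation p = 0.0857). In these 3 genes every KO share was above every WT share.

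In the case of 4 genes every KO share was under every WT share. Fbxw28 went from 11.7% ± 0.194 to 10.8% ± 0.523 (exact permutation p = 0.0286), Fbxw19 from 7.26% ± 0.241 to 6.11% ± 0.669 (exact permutation p = 0.0286) and Fbxw16 from 7.44% ± 0.370 to 6.5% ± 0.237 (exact permutation p = 0.0571). Fbxw25 went from 0.544% ± 0.0753 to 0.434% ± 0.0109 (exact permutation p = 0.0571). All shares are means with SD over 4 WT and 3 KO libraries. With 35 splits the smallest possible p is 0.0286, and after Benjamini-Hochberg adjustment over the 14 permutation tests 0 were under 0.05, the smallest being 0.133. Groups separated in 7 of the 14, while 17.7% of all genes separated when divided by the same sum. That division takes out the level the 14 genes share and can add spread to genes outside the array. The 7 of 14 and the 17.7% are therefore not on equal terms. Shares add to 100, so a larger one forces others down, and reads of Fbxw14 and Fbxw28, whose shares differed in opposite directions, can be mixed.

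**Figure D3:**
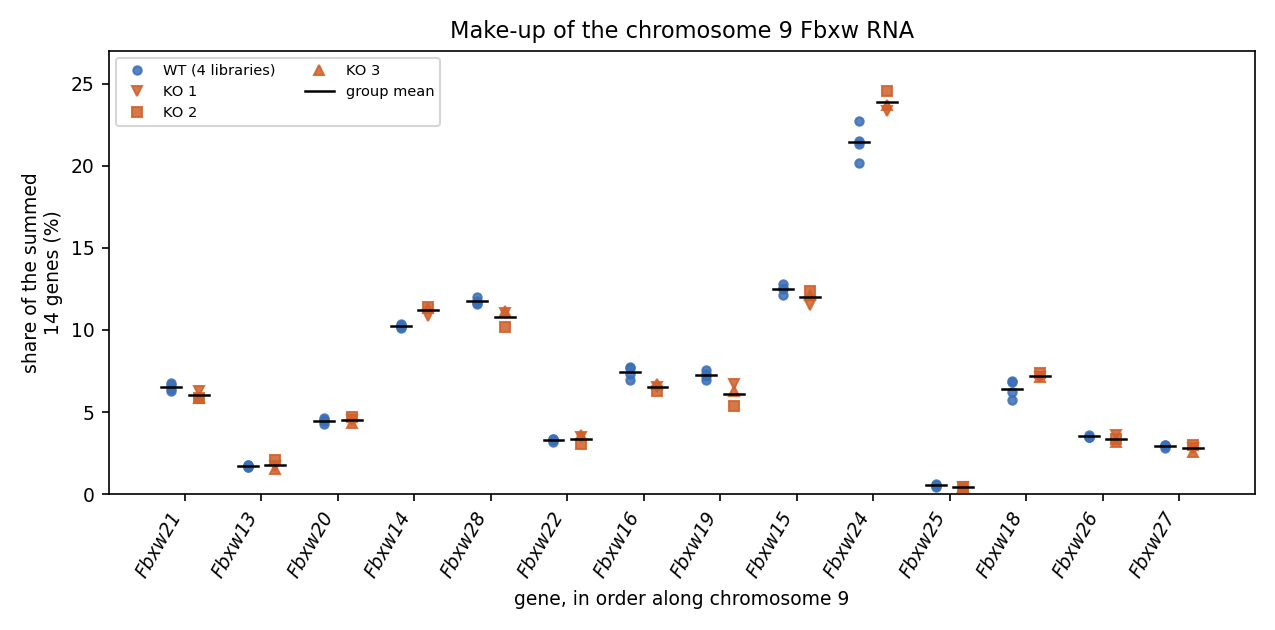
Share of the summed chromosome 9 Fbxw normalised counts (percent) held by each of the 14 genes, 1 point per library, with a bar at each group's mean. Fbxw24 holds the largest share, 21.4% in WT and 23.9% in KO, and 7 genes have groups that do not overlap.

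The genes outside the rule whose values most resembled the array sum over the 7 libraries, among 8312 protein-coding genes with a mean of at least 50, were Trmt5 (Pearson r 0.994), Ktn1 (0.991), Mpi (0.988), Smc6 (0.986) and Eif3m (0.985). Correlations were of log2 values in the same libraries and normalisation and are given as a description. Trmt5, for example, was at 697, 658, 591 and 663 in WT 1 to 4, and 620.5, 724 and 849 in KO 1 to 3; WT 3 was lowest and KO 3 highest, as in the array.

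Among the 62 F-box genes elsewhere, 59 were tested and limma called 5, of which 1 was higher and 4 were lower in KO. That is 8.47% of the tested genes against 6.71% of all genes. The median log2 fold change was -0.07 beside -0.01. Fbxl16, Fbxo2 and Fbxo27 were at or near 0 in every library and were not tested. By family, limma called 2 of 9 Fbxw genes, both lower, 1 of 17 Fbxl genes, lower, and 2 of 33 Fbxo genes, 1 in each direction. The edgeR and DESeq2 fits each called 7, where they called 9.27% and 9.35% of all genes.

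Fbxl22 encodes a leucine-rich-repeat receptor known from the muscle sarcomere (chr9:66508459-66514593, minus strand). It was at 249.8, 293, 279 and 229.6 in WT 1 to 4, and 143, 143 and 147 in KO 1 to 3. The 3 KO libraries lay within a few counts of each other and under all 4 WT libraries, with means of 263 ± 28.4 in WT against 144 ± 2.26 in KO (SD, n = 4 and 3) (limma log2 fold change -0.86 with SE 0.17, adjusted p = 0.0037). Limma still called it whichever 1 of the 7 libraries was dropped. Its end overlaps that of Herc1 by 317 of its 6135 bases. The pair share 6.29% of Fbxl22's stretches, and the Herc1 mean went from 85.6 to 116 (limma adjusted p = 0.25); the library type keeps no strand.

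Fbxw4 encodes dactylin, known from limb development (chr19:45578254-45660312, minus strand). It was at 1007, 1126, 1066 and 1158 in WT 1 to 4, and 790.4, 741 and 574 in KO 1 to 3. Every KO value was under every WT value, with means of 1089 ± 66.9 in WT against 702 ± 113 in KO (SD, n = 4 and 3) (limma log2 fold change -0.64 with SE 0.14, adjusted p = 0.00819). This call also held in all 7 fits that left out 1 library. The overlapping gene Gm17018, which holds 15.6% of the Fbxw4 stretches, fell too, from 2015 to 1450.5 (log2 fold change -0.47, limma adjusted p = 0.0259), so reads of the 2 may be mixed.

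Fbxo15, on chromosome 18, is known as a target of Oct4 in embryonic stem cells. It was at 51.5, 42.6, 61.7 and 34.7 in WT 1 to 4, and 31.8, 7.27 and 9.85 in KO 1 to 3. KO 2 and KO 3 were far under WT, while KO 1 was just under the lowest WT library (limma log2 fold change -1.73 with SE 0.40, adjusted p = 0.0151). Dropping WT 3, KO 2 or KO 3 ended the limma call, at an adjusted p of 0.061, 0.068 and 0.0749.

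Fbxw10 (chr11:62847069-62877465, plus strand) was at 122, 85.2, 103 and 85.6 in WT 1 to 4, and 64.5, 30.9 and 62.4 in KO 1 to 3. All 3 KO values were under all 4 WT values, KO 2 by the most (limma log2 fold change -0.95 with SE 0.26, adjusted p = 0.0315). Dropping WT 1, WT 2, WT 3 or KO 2 ended the limma call, at an adjusted p of 0.0964, 0.052, 0.0888 and 0.168.

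Fbxo45 was the one F-box gene called higher (chr16:32230112-32247158, minus strand). Its product is known to pair with the ligase PAM (Mycbp2) rather than with Cul1. It was at 28.6, 38.3, 45.8 and 29.2 in WT 1 to 4, and 75.4, 61.8 and 91.9 in KO 1 to 3, with every KO value above every WT value (limma log2 fold change 1.09 with SE 0.26, adjusted p = 0.0168). Dropping WT 1 or KO 3 ended the limma call, at an adjusted p of 0.0509 and 0.0752.

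**Figure D4:**
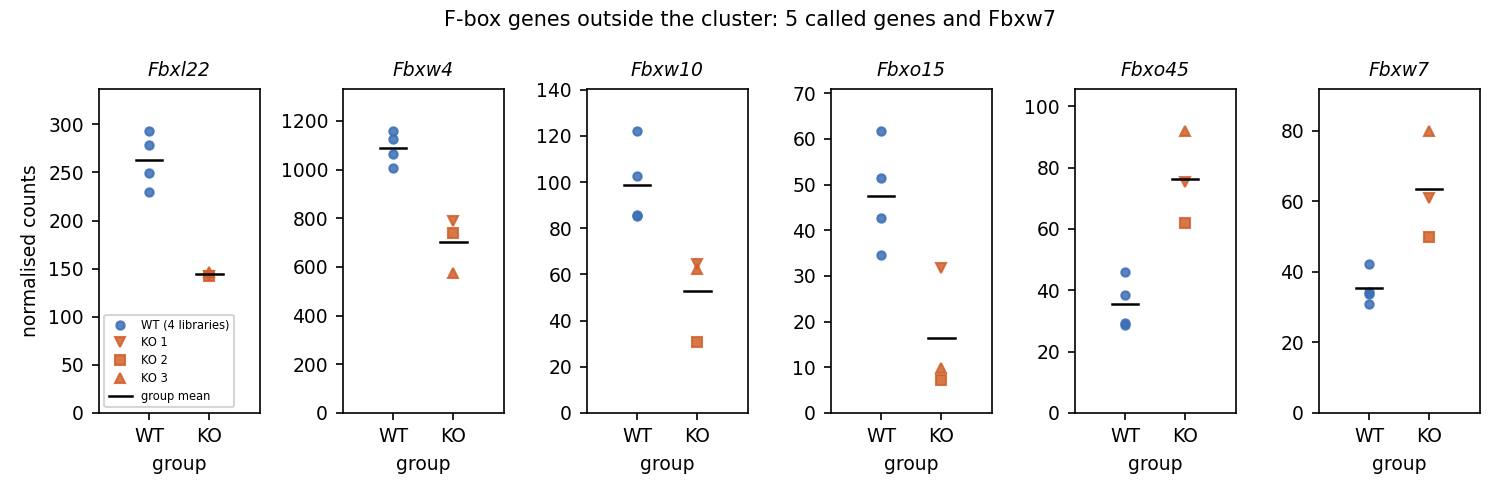
Normalised counts of the 5 F-box genes called by limma and of Fbxw7, which was not called, 1 panel per gene, 1 point per library, with a bar at each group's mean. WT and KO points do not overlap in any of the 5; Fbxo45 is higher in KO and Fbxl22, Fbxw4, Fbxo15 and Fbxw10 are lower.

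With KO 2 and KO 3 both left out, KO 1 was the single KO library, assumed to vary like WT, and none of the 5 was called (limma adjusted p from 0.0808 for Fbxl22 to 0.665 for Fbxo15). The log2 fold change then was -0.87 for Fbxl22 and 1.09 for Fbxo45, as in the full set, but -0.46 for Fbxw4, -0.59 for Fbxw10 and -0.54 for Fbxo15, nearer to 0. In 3 of the 5 genes KO 1 was nearer to the WT mean than KO 2 and KO 3 were. With the granulosa mean in the fit, none was called either (limma adjusted p between 0.524 and 0.817), at log2 fold changes of -0.77 for Fbxl22, 1.24 for Fbxo45, -0.88 for Fbxw10, -0.40 for Fbxw4 and -0.85 for Fbxo15. Every KO library was above every WT library in the granulosa mean, so that fit cannot tell it apart from genotype. Across the 59 genes, the limma count was 3 without WT 1, WT 3, KO 2 or KO 3, and 9 without KO 1. The count over all genes moved as well, from 594 to 1767 when 1 library was left out, and was highest without KO 1 (9.36%).

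A further 11 genes had groups that did not overlap but were not called, which with the 5 makes 16 of 59 (27.1%) against 19.2% of all genes. Of the 59 tested, 6 had every KO library above WT and 10 had every one below. Over all 19227 genes tested the counts were 1802 and 1890, which is 9.37% and 9.83%. The 11 uncalled genes were singled out after their values were seen. In 5 the KO libraries were above WT. One was Fbxw7, the receptor for cyclin E, Myc and Notch, at 34.3, 30.9, 33.6 and 42.2 in WT 1 to 4, and 60.9, 50 and 79.9 in KO 1 to 3; the lowest KO value exceeded the highest WT value (limma log2 fold change 0.82 with SE 0.26, adjusted p = 0.0668), and edgeR called it (adjusted p = 0.0483). The others were Fbxo3 (157 to 220.3), Fbxo38 (249.8 to 303), Fbxl13 (63.7 to 77.6) and Fbxo4, which was under 10 in both means.

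In the other 6 the KO libraries were below WT. Fbxl17, a receptor for misassembled BTB-domain dimers, was at 436, 339.8, 337 and 420.3 in WT 1 to 4, and 273, 259 and 281 in KO 1 to 3. Its KO values were tightly grouped under the lowest WT value (limma log2 fold change -0.49 with SE 0.16, adjusted p = 0.0637), and edgeR (adjusted p = 0.0458) and DESeq2 (adjusted p = 0.0306) called it. Fbxo28 was at 1497, 1660.5, 1671 and 1686 in WT 1 to 4, and 1402, 1141 and 1260.2 in KO 1 to 3; KO 1 was nearest to WT (limma log2 fold change -0.36 with SE 0.13, adjusted p = 0.0852), DESeq2 called it (adjusted p = 0.049), and limma did without KO 1 (adjusted p = 0.0488). The remaining 4 were Fbxo5, Fbxo43, Fbxo17, from a glycoprotein-binding subgroup (66.1 to 45.5), and Fbxl12 (134 to 102), which shares 33.8% of its stretches, mostly with Ubl5.

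Fbxo5 (Emi1), the most abundant member of the naming rule outside the array, was at 2005, 1676, 1653 and 1850.0 in WT 1 to 4, and 1529.8, 1630.0 and 1605 in KO 1 to 3. The KO values lay just under the WT range and the difference was small (limma log2 fold change -0.17 with SE 0.12, adjusted p = 0.446). Fbxo43 (Emi2) was at 462, 478, 475 and 485 in WT 1 to 4, and 455, 353 and 333 in KO 1 to 3; WT libraries were alike and KO libraries were lower and more spread (limma log2 fold change -0.33 with SE 0.15, adjusted p = 0.193). Neither passed the test.

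Other abundant members were not called. Fbxo34 was at 1678 ± 292 in WT against 1605 ± 273 in KO (SD, n = 4 and 3) and Fbxo8 at 1256 ± 78.8 in WT against 1199.7 ± 95.4 in KO (SD, n = 4 and 3), with limma adjusted p of 0.86 and 0.81. Fbxo30 was at 867 ± 67.9 in WT against 976 ± 202 in KO (SD, n = 4 and 3) (limma adjusted p = 0.592). Fbxl5, the iron-sensing receptor, was at 895 ± 117 in WT against 977 ± 111 in KO (SD, n = 4 and 3) (limma adjusted p = 0.651). Fbxl6 had 968, 1416, 1211 and 909 in WT 1 to 4, and 960.2, 839 and 574 in KO 1 to 3; the groups overlapped (limma log2 fold change -0.52 with SE 0.18, adjusted p = 0.0996), and limma called it without KO 1 (adjusted p = 0.035) and without the filter on low values (adjusted p = 0.021). Fbxl20 and Fbxl2 had means of 341 and 259 in WT and 325 and 239 in KO.

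Among Fbxw genes elsewhere, Fbxw11 (β-TrCP2, a receptor for phosphorylated β-catenin) was at 77.5 ± 22.5 in WT against 104 ± 22.2 in KO (SD, n = 4 and 3) (limma adjusted p = 0.309). Fbxw17 was at 180.0 ± 28.2 in WT against 162 ± 56.0 in KO (SD, n = 4 and 3), and Fbxw8, which works with Cul7, at 162 ± 34.3 in WT against 141 ± 32.7 in KO (SD, n = 4 and 3). Of the latter's stretches 30.2% match another gene, mostly Gm9754. Fbxo7 and Fbxl4, both linked to mitochondrial quality control and chosen for that after their values were seen, were at 324 ± 46.4 in WT against 367 ± 100.1 in KO (SD, n = 4 and 3) and 163 ± 21.8 in WT against 150.4 ± 8.91 in KO (SD, n = 4 and 3) (limma adjusted p = 0.685 and 0.774).

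Levels within the 59 tested genes varied widely: 6 had a WT mean under 10, 22 lay between 10 and 100, 25 between 100 and 1000, and 6 at 1000 or more. Those under 10 were Fbxo6, Fbxo4, Fbxo39, Fbxo32 (atrogin-1, known from muscle wasting), Fbxo41 and Fbxo48, where a few reads set the value.

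The partners of F-box proteins were described from a list of SCF core, neddylation and regulator genes. Of 36 tested, limma called 2 higher in KO and 0 lower (5.56% against 6.71% of all genes), and the median log2 fold change was 0.07 beside -0.01 over all genes. Rnf7, a RING subunit that recruits the ubiquitin-conjugating enzyme, was at 337, 324, 354 and 420.3 in WT 1 to 4, and 489, 664 and 682 in KO 1 to 3. Every KO value was above every WT value (limma log2 fold change 0.76 with SE 0.16, adjusted p = 0.00628), and the call held in all 7 fits without 1 library. Cul1, the SCF scaffold, was at 7646 ± 729 in WT against 10351 ± 1642 in KO (SD, n = 4 and 3) (limma log2 fold change 0.43 with SE 0.12, adjusted p = 0.0409). That limma call was kept only in the fit without KO 1; without any other single library its adjusted p was 0.0509 to 0.131. Skp1a, the adaptor, was at 23488 ± 1752 in WT against 24321 ± 1687 in KO (SD, n = 4 and 3) and Rbx1, the other RING subunit, at 2556 ± 197 in WT against 2554 ± 449.7 in KO (SD, n = 4 and 3) (limma adjusted p = 0.83 and 0.972). As with the F-box genes, the Rnf7 and Cul1 calls were lost without KO 2 and KO 3 together (limma adjusted p = 0.418 and 0.684).

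Of 7 F-box genes known by other symbols, limma called 0, with 0 at an unadjusted p under 0.05 and a median log2 fold change of -0.28 beside -0.01 over all genes; edgeR and DESeq2 also called 0. Btrc (β-TrCP1) was at 1888 ± 202 in WT against 1849.9 ± 82.5 in KO (SD, n = 4 and 3), Skp2 at 31.9 ± 8.24 in WT against 25.2 ± 6.11 in KO (SD, n = 4 and 3) and Ccnf (cyclin F) at 194 ± 34.0 in WT against 194 ± 49.4 in KO (SD, n = 4 and 3). Of 23 APC/C genes, the targets of Fbxo5 and Fbxo43 inhibition and their partners, limma called 1 higher and 1 lower (8.7% against 6.71% of all genes), with a median log2 fold change of -0.10. Ube2c, the APC/C ubiquitin-conjugating enzyme, was at 2870.5, 2681, 2472 and 3456 in WT 1 to 4, and 3862, 6027 and 4134 in KO 1 to 3; KO was above WT throughout (limma log2 fold change 0.69 with SE 0.15, adjusted p = 0.0111), and the call was lost without KO 2 (limma adjusted p = 0.0711). Ccnb2 (cyclin B2) was at 2065 ± 90.6 in WT against 1563 ± 106 in KO (SD, n = 4 and 3) (limma log2 fold change -0.40 with SE 0.12, adjusted p = 0.0465), and its limma call was lost without any 1 of the 4 WT libraries, KO 2 or KO 3 (adjusted p between 0.0626 and 0.128). Of 28 known SCF substrates, limma called 1 (3.57% against 6.71% of all genes), Myc, at 0.95, 0, 0 and 0 in WT 1 to 4, and 1.82, 6.36 and 5.47 in KO 1 to 3 (limma adjusted p = 0.0445). These are a handful of reads, and its call was lost without any 1 of the WT libraries (limma adjusted p between 0.0545 and 0.105); without any 1 of the KO libraries it was under the filter and was not tested. The median log2 fold change over the substrates was 0.20 beside -0.01 over all genes.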

How the data were processed

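The deposited table holds 1 value per gene and library for 7 libraries. Per the labels' protocols, cDNA was made by Smart-Seq2, tagged with Nextera XT, which keeps no strand, and read as 75-base pairs. Per the submitters' processing notes, cutadapt, FastQC, STAR, DESeq and DESeq2 were used with GRCm38 (mm10); no source used here names the counter. The values deposited by the authors are a signal: read counts divided by 1 size factor per library. Multiplying by that factor gave back reads, and at least 99.96% of values were whole within 0.05. The smallest library held 6676076 reads in genes, so counting error is small for the array and other abundant members. It is larger at low counts: of the 59 tested members elsewhere, 6 had a WT mean under 10 and 22 one of 10 to 100. The called Fbxo15 was at 7.27 in KO 2 and 9.85 in KO 3.

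Groups follow the titles. Genes at 1 or more in at least 3 libraries (19227) were tested with limma 3.58.1 (trend, robust; R 4.3.3) on log2(value + 1), two-sided, Benjamini-Hochberg adjusted over all of them, called under 0.05. The fit was tested on simulated data. Alternatives were edgeR 4.0.16 and DESeq2 1.42.0 on recovered reads, other scalings, pseudocounts and filters, leaving out libraries, a granulosa marker covariate and a replicate block. Members and gene lists were chosen with earlier results of these data known. Genes named are the chromosome 9 Fbxw genes, called members, the 5 most abundant per family, Fbxo5, Fbxo43, Fbxw7 and Fbxw11, and called list genes; others are said to be chosen after their values. All 76 members matched GENCODE M21. Same-numbered libraries were not paired by the labels. Protein sequences were not used here.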

Additional observations from a re-analysis of the deposited data

Results flagged for a closer look

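Among the 73 tested F-box genes, 2 had 1 WT library apart from the other 3, measured as its gap to the nearest over the range of the 4 and set against Dixon's 95% limit; chance gives about 1 in 20 such groups. Fbxl21, a cryptochrome receptor, was at 50.9 in WT 4 against 41.1 to 42.6 in WT 1 to 3, a gap of 0.849 of the range. Fbxo28 was at 1497 in WT 1 against 1660.5 to 1686 in the others, a gap of 0.863 of the range; the WT 1 value was the nearest of the 4 to the KO mean of 1268.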

How the results depend on the processing

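The count of all genes called by limma, 1291, ranged from 594 (without WT 3) to 1767 (without KO 1) when 1 library was left out, with 728 without WT 1, 710.0 without WT 2, 604 without KO 2 and 821 without KO 3; it was 98 without KO 2 and KO 3 together and 2 with the granulosa mean in the fit. For the chromosome 9 Fbxw genes it was 0 to 3 when 1 library was left out and 2 with no filter on low values. For the other F-box genes, 5 in the reported fit, it was 3 to 9 when 1 library was left out. With 1 library left out it was 1 to 3 for SCF core genes (2 reported; 3 without KO 1, 2 without WT 4 and 1 in the other fits), 0 to 2 for APC/C genes (2 reported; 0 without KO 2, 1 without KO 3 or any WT library), 0 for SCF substrates (1 reported) and 0 for F-box genes under other symbols (0 reported). Leaving out KO 2 and KO 3 together, or adding the granulosa covariate, each gave 0 for the other F-box genes and for the SCF core, APC/C and substrate lists. The granulosa mean was higher in every KO library than in any WT library, so the fit with it cannot separate it from genotype. SCF core genes called numbered 4 under counts-per-million scaling, and APC/C genes 1 with no filter. Substrates called numbered 0 with edgeR, 2 with DESeq2 (Ccne2 and Wee1), 0 with a pseudocount of 0.5 and 0 with a filter of at least 10. Same-numbered WT and KO libraries correlated at -0.12, 0.03 and 0.02 in their deviations from the group means, so the numbers were not taken as pairing. With the replicate number as a block, in which WT 4 has no partner, 1022 genes were called, 1 SCF core gene, 1 APC/C gene, 0 substrates and 5 other F-box genes. Direction was checked for the genes named here only. None of them that was called in the reported fit, or under an alternative, turned its direction. Of uncalled genes named here, 17 turned under some alternative, among them 10 of the 14 array genes: 9 array genes without KO 2 and KO 3 together, 7 with the granulosa mean in the fit, 3 without KO 3, 2 without WT 3 and 1 without KO 1. Depth did not limit the array, but 6 tested F-box genes were under 10 normalised counts in WT, and 4 against 3 libraries limit every interval.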
